A study of Mus musculus with 2 samples.

Results

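Runx3 peaks were described at 5 microRNA loci of the mouse genome, Mir142, Mir155, Mir150, Mir21 and Mir146. The members are the peaks of the deposited Runx3 list whose midpoint lies in 1 of 5 fixed windows in mm9 coordinates, and 27 of the 19647 listed peaks (0.137%) met this rule. The loci were selected on the positions of the listed peaks themselves, so their counts are descriptions and carry no test. The data come from chromatin immunoprecipitation sequencing of natural killer (NK) cells from the spleens of wild-type ICR mice. The mice were given 2 injections of IL-15 complexed with its receptor alpha chain (IL-15/Ra), with 2 days between them. NK cells were enriched by negative selection and sorted for the NK cell receptor NKp46. The study made 1 library with a home-made polyclonal antibody against Runx3 and 1 with non-immune rabbit serum. Both came from the same kind of IL-15-treated cells, so resting NK cells are not among the groups. Neither library has a replicate, and no values of the serum library were used here.

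Each entry of the list is a position on a chromosome, with no height, score or read count. The depth behind each peak is therefore unknown, and a window with no listed peak cannot be told apart from one with weak signal. It holds no expression values, so the NK identity of the cells could not be checked against marker genes. Peaks of 1 window share their chromatin and their library and are not replicates. Starts are printed counting from 1.

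MicroRNAs are short RNAs that guide Argonaute proteins to messenger RNAs. Pairing rests mainly on the seed near the 5′ end of the mature RNA, and the bound messenger is repressed or degraded. Each is cut from a hairpin by Drosha and Dicer, and either arm of the hairpin can give a mature RNA. Runx3 is a Runt-domain transcription factor of NK cells and cytotoxic T cells that binds DNA together with CBFβ. Mature RNAs of these loci are shown because they are what the loci encode; the sequences are from RefSeq (GRCm38.p6). There, 9 mature RNAs matched, both arms for Mir142, Mir155, Mir21 and Mir146 and, for Mir150, only mmu-miR-150-3p. No entry for mmu-miR-150-5p or the Mir150 hairpin was found there, so neither is shown. Bases 2 to 8, the seed, are in capitals.
mmu-miR-142a-5p: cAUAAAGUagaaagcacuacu
mmu-miR-142a-3p: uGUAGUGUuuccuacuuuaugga
mmu-miR-155-5p: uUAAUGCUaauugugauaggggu
mmu-miR-155-3p: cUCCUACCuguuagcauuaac
mmu-miR-150-3p: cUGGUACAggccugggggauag
mmu-miR-21a-5p: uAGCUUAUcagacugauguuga
mmu-miR-21a-3p: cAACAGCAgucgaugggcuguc
mmu-miR-146a-5p: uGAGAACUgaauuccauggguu
mmu-miR-146a-3p: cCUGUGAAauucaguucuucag

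These 9 mature RNAs carried 9 distinct seeds, so no pair of those printed shares a seed. Among the 1679 named mature RNAs of the table, the seed of mmu-miR-21a-5p was found in 1 other, mmu-miR-21c, and that of mmu-miR-146a-5p in 1 other, mmu-miR-146b-5p. The other 7 seeds were found in no other entry. The hairpin of Mir142, whose locus held the most peaks, is printed with its mature arms in capitals to show that both arms come from 1 transcript of the plus strand.
Mir142 hairpin: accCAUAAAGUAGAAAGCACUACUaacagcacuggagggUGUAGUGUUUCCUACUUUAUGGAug

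The RefSeq gene table follows GRCm38 and not mm9, so its coordinates were not used with the peaks and no peak was placed relative to a hairpin, exon, intron or promoter. The table serves here for the order of genes. Mir142 lies between the protein-coding genes Supt4a, an elongation factor subunit, and Tspoap1, and its hairpin lies within that of Mir142b, a microRNA gene of the opposite strand. Mir155 lies within its host transcript Mir155hg (also called Bic), with Ncam2 and Mrpl39 as the next coding genes. Mir150 lies next to Fcgrt, which encodes the neonatal Fc receptor. Mir21a, the current symbol of Mir21, lies within Vmp1, an autophagy gene, and Mir146 lies between Atp10b and Pttg1, the securin gene. The peaks described below may belong to any of these genes or to the microRNA.

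The 5 windows held between 1 and 12 Runx3 peaks, most at Mir142 and fewest at Mir155. Mir142 had 12 in 70 kb, Mir150 had 6 in 70 kb, Mir21 had 6 in 80 kb, Mir146 had 2 in 100 kb and Mir155 had 1 in 100 kb. Per 100 kb the counts were 17.1 for Mir142 (exact 95% Poisson interval 8.86 to 29.9), 8.57 for Mir150 (3.15 to 18.7) and 7.50 for Mir21 (2.75 to 16.3). They were 2.00 for Mir146 (0.242 to 7.22) and 1.00 for Mir155 (0.0253 to 5.57). These intervals cover counting error only and take each peak as independent of the others. Peaks of 1 locus are not independent, so the intervals are too narrow, and the order of the loci was not tested.

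**Figure D1:**
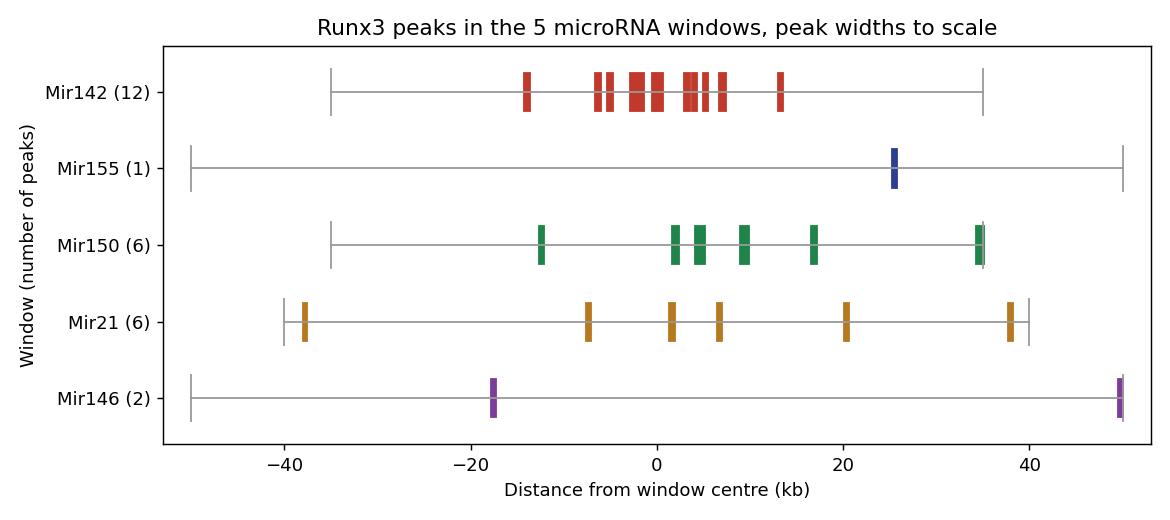
Positions of the Runx3 peaks in the 5 windows, with distance from the window centre in kb on the horizontal axis and 1 row per window; grey lines are the windows and coloured blocks are peaks at their true width. The 12 peaks of Mir142 gather in the middle of the window, whereas the Mir155 window holds 1 peak, 25.48 kb from its centre.

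Each window was set beside windows of the same length placed end to end along the same chromosome, leaving out those that touch any of the 5. On chromosome 11, 2 of 1688 such windows (0.118%) held at least the 12 peaks of Mir142. Their mean was 0.970 peaks, so the Mir142 window held 12.4 times the mean. Over all autosomes the share was 15 of 34175 windows (0.0439%). The 12 peaks covered 7471 bp, 10.7% of the window, and 0.178% of the equal windows were covered to the same extent or more. Among equal windows placed without regard to peaks, the Mir142 window thus lay near the top of its chromosome by count and by covered bases.

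The shares depended on what the windows were set beside, at Mir142 as well as at Mir150 and Mir21. At least 6 peaks were found in 1.88% of 2126 equal windows on chromosome 7 (Mir150) and in 3.32% of 1477 on chromosome 11 (Mir21). Mir150 held 9.07 times and Mir21 5.41 times the mean of their equal windows. Among equal windows with at least 1 peak the shares were 6.92% and 7.92%, and among windows centred on each listed peak of the chromosome they were 22.3% and 27.0%. The share for Mir142 among such centred windows was 1.65%, against 0.118% among equal windows placed end to end. With the peaks narrower than the list median left out, Mir21 held 0 peaks. For Mir155, 273 of 943 equal windows on chromosome 16 (29.0%) held 1 peak or more, and for Mir146, 364 of 1181 on chromosome 11 (30.8%) held 2 or more. The counts at Mir155 and Mir146 were 1.53 and 1.44 times the mean, and shares of this size give no result about these loci. Many equal windows held no peak at all, 60.6% for the length and chromosome of Mir142 and 71.0% for those of Mir155, so any locus with a peak stands above the median of 0.

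**Figure D2:**
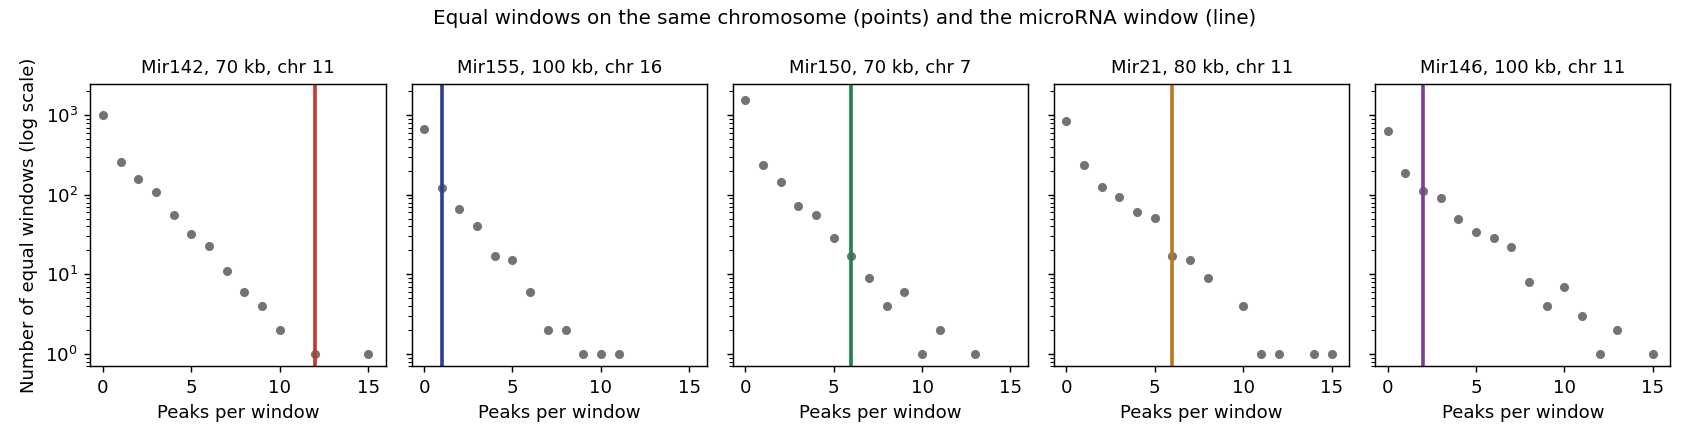
Number of equal windows (vertical axis, log scale) that held a given number of peaks (horizontal axis), as points, for the length and chromosome of each microRNA window; the coloured line marks that window's own count. The lines of Mir142, Mir150 and Mir21 stand in the sparse right part at 12, 6 and 6 peaks, and those of Mir155 and Mir146 in the left part at 1 and 2.

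Mir142 encodes a microRNA that is abundant in blood cells of all lineages and scarce elsewhere, and mice that lack it have defects in many lymphocyte types, NK cells among them. Its window runs from 87530000 to 87600000 on chromosome 11. The 12 peaks lay between 87550729 and 87578528, a span of 27.8 kb, with no peak in the outer parts of the window. The first was 87550729 to 87551366 and the last 87578051 to 87578528, standing 6997 and 5597 bp from the rest. The other 10 filled 14.1 kb, from 87558364 to 87572453, and covered 45.1% of it.

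Within that stretch the peaks followed each other closely. The first 5 were 87558364 to 87559023 (660 bp), 87559703 to 87560245 (543 bp), 87562100 to 87562588 (489 bp), 87562602 to 87563598 (997 bp) and 87564484 to 87564897 (414 bp). The next 5 were 87564936 to 87565650 (715 bp), 87567935 to 87568611 (677 bp), 87568803 to 87569350 (548 bp), 87569955 to 87570446 (492 bp) and 87571634 to 87572453 (820 bp). Of the 11 gaps between the 12 peaks, 2 were under 100 bp, at 13 and 38 bp. The gaps follow from the peak positions on which the locus was selected. In the whole list, 389 of 19627 neighbouring pairs (1.98%) had a gap under 100 bp. Whether such pairs are separate sites or 1 region listed in pieces was not tested; joined across gaps of up to 100 bp the window held 10 peaks, and across up to 1000 bp it held 6.

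No other run of 10 consecutive peaks in the list was as short as that at Mir142. The shortest elsewhere took 20.6 kb, on chromosome 8, against 14.1 kb. The length of 10 was chosen after the peaks were seen, and the rank among all runs depended on it. For runs of 12 the Mir142 window also ranked 1, for 8 it ranked 2, for 6 it ranked 8, and for 5 and for 4 it ranked 16. After joining across gaps of up to 100 bp the same 14.1 kb held 8 peaks and ranked 2 of 19113 runs of 8. After joining across up to 1000 bp it held 4 regions, the longest of them 3551 bp from 87562100 to 87565650, and ranked 198 of 17726 runs of 4. At a run length of 8 the rank was 2 as listed and 2 after joining across up to 100 bp. These were different runs, of 10.4 kb and 14.1 kb. At a run length of 4 the rank was 16 as listed and 198 after joining across up to 1000 bp. Those runs differed too, at 3.55 kb and 14.1 kb.

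When peaks at most 10 kb apart by midpoint were chained, the 12 peaks formed 1 stretch. Of the 3700 stretches of 2 or more peaks in the whole list, 8 had 12 or more peaks, of which 4 had more than 12. At 4.32 peaks per 10 kb, the Mir142 stretch was denser than the other 7, which had 2.65 to 3.59. The cut of 12 peaks is the count at Mir142 itself, and shorter stretches were left out of this comparison. Among those, a stretch of 2 peaks across the lower edge of the Mir21 window had 4.45 per 10 kb. The nearest peak below the stretch was 84.2 kb away and the nearest above 35.3 kb away. The adjacent windows of 70 kb held 1 peak below and 3 above.

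At Mir142 the ratio to the mean of equal windows was highest near the window centre and fell with window length. In the central 20 kb there were 10 peaks, 36.1 times the mean of equal windows. Of 5917 windows of 20 kb placed on chromosome 11, 0 (0%) held as many. The locus was chosen on these peaks and the 5917 windows were placed without regard to peaks, which favours a low share. At 70 kb the share rose from 0.118% to 1.65% among windows centred on each listed peak. No such share was computed at 20 kb. The ratio was 17.3 in 50 kb, 9.38 in 100 kb, 5.40 in 200 kb, 3.19 in 500 kb and 2.97 in 1000 kb. At 500 and 1000 kb, 5.56% and 5.22% of equal windows held at least as many peaks. From 50 kb up the counts include all 12 peaks of the window. In 2000 kb around the same centre the ratio was 1.61, and 19.6% of equal windows held at least the 45 peaks found there.

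Mir150 is expressed in mature lymphocytes, with Myb as a well-known target, and takes part in NK cell maturation. Its window runs from 52340000 to 52410000 on chromosome 7. The 6 peaks were 52362324 to 52362915 (592 bp), 52376594 to 52377368 (775 bp), 52379058 to 52380166 (1109 bp), 52383924 to 52384848 (925 bp), 52391521 to 52392217 (697 bp) and 52409289 to 52410078 (790 bp). From the second to the fifth they formed a stretch of 4 in 15.6 kb. Of the 3700 stretches of 2 or more peaks in the list, 554 had 4 or more. They covered 4810 bp of the window (6.87%), and 0.988% of equal windows were covered as much.

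Peaks were also frequent around the Mir150 window. The adjacent 70 kb held 9 peaks below, more than the window itself, and 2 above. In the central 20 kb the ratio to the mean of equal windows was 15.8, and 1.29% of them held at least as many. In 1000 kb around the centre there were 54 peaks, 5.84 times the mean, and 0 of 148 equal windows (0%) held as many. At 2000 kb the ratio was still 4.72, against 1.61 for Mir142. The 6 peaks at Mir150 thus lie in a region that is dense over a megabase.

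Mir21 is a microRNA induced by STAT3 and by activation in many cell types, with Pdcd4 among its known targets. Its window runs from 86360000 to 86440000 on chromosome 11, below that of Mir142; 1113 kb and 16 peaks separate the last peak of Mir21 from the first of Mir142. The 6 peaks were 86362045 to 86362475 (431 bp), 86392437 to 86392877 (441 bp), 86401347 to 86401940 (594 bp), 86406513 to 86407029 (517 bp), 86420104 to 86420637 (534 bp) and 86437688 to 86438213 (526 bp). They were spread over 76.2 kb, with a closest pair 4.57 kb apart from end to start. They covered 3.80% of the window, and 7.45% of equal windows were covered as much, against 3.32% by count.

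Around Mir21 the density fell to that of the chromosome within a megabase. The central 20 kb held 3 peaks, 10.8 times the mean, and 2.16% of equal windows held as many. The adjacent 80 kb held 2 peaks below and 0 above, where the next peak was 132 kb away. In 1000 kb there were 12 peaks, 0.871 times the mean, and 45.2% of equal windows held as many.

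Mir155 is induced when lymphocytes are activated and takes part in IFN-γ production and expansion of NK cells, with Inpp5d (SHIP1) among its known targets. Its window runs from 84660000 to 84760000 on chromosome 16. The 1 peak there was 84735200 to 84735750 (551 bp). It stood alone, with the next peaks 151 kb below and 86.7 kb above; 8.17% of all listed peaks had their nearest neighbour, by midpoint, at least as far away. It covered 0.551% of the window, and 24.5% of equal windows were covered as much. The central 50 kb held no listed peak, and in 1000 kb around the centre there were 4 peaks, 0.605 times the mean of equal windows.

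Mir146, the symbol under which the table lists the gene of miR-146a, is induced by NF-κB and restrains it through Traf6 and Irak1. Its window runs from 43140000 to 43240000 on chromosome 11. The peaks were 43172223 to 43172692 (470 bp) and 43239463 to 43240020 (558 bp), 66.8 kb apart. The nearest peak below them was 184 kb away and the nearest above 67.4 kb away. They covered 1.01% of the window, and 31.6% of equal windows were covered as much. In 1000 kb there were 7 peaks, 0.508 times the mean, on a chromosome that is otherwise rich in peaks.

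**Figure D3:**
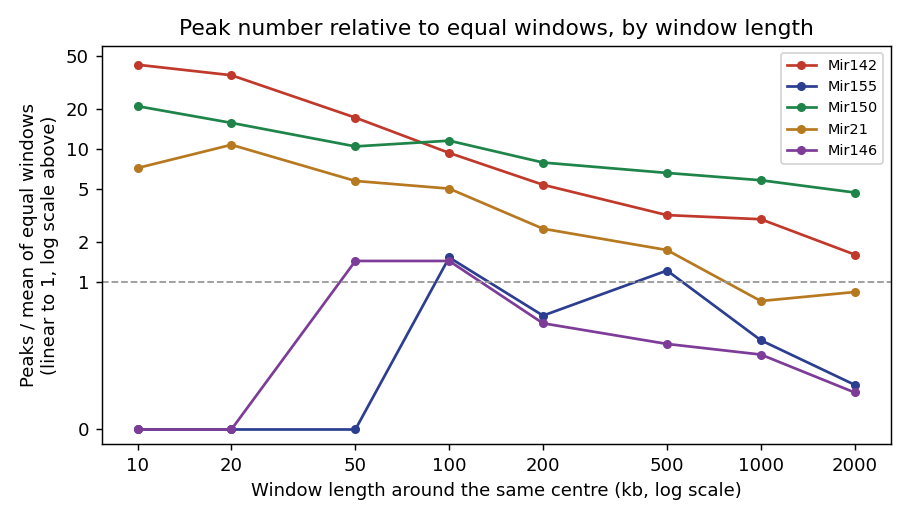
Number of peaks around each window centre divided by the mean of equal windows on the same chromosome (vertical axis, linear to 1 and log scale above), for window lengths from 10 to 2000 kb (horizontal axis, log scale); the dashed line marks a ratio of 1. The curve of Mir142 falls from 43.3 to 1.61, that of Mir150 stays at 4.72 or above, and those of Mir155 and Mir146 start at 0 and never exceed 1.53.

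Peak widths were not used by the rule, though the loci were proposed with the list known. The 27 peaks had a median of 558 bp (414 to 1109 bp), beside 604 bp in the whole list (interquartile range 506 to 778 bp). At Mir142 the median was 593 bp (414 to 997 bp), with 6 peaks below the list median and 6 above. At Mir150 it was 782 bp (592 to 1109 bp), and 5 of the 6 peaks exceeded the list median. At Mir21 it was 522 bp (431 to 594 bp), with 6 of 6 peaks below the list median. The 1 peak of Mir155 and the 2 of Mir146 were below it too.

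The narrowest Mir150 peak (592 bp) was about as wide as the widest Mir21 peak (594 bp), and the ranges of those loci overlapped between these values only. Of the 27 peaks, 1 exceeded 1000 bp, the Mir150 peak of 1109 bp, beside 2050 of all 19647 listed peaks (10.4%). With 27 peaks, a count of 1 gives no result about these loci. The Mir150 peak of 1109 bp was wider than 93.1% of the list. The widest Mir142 peak, 997 bp, was wider than 89.4%, and the narrowest, 414 bp, than 6.80%. Peaks of 1 locus share their source and the loci were few, so no test of width was made.

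**Figure D4:**
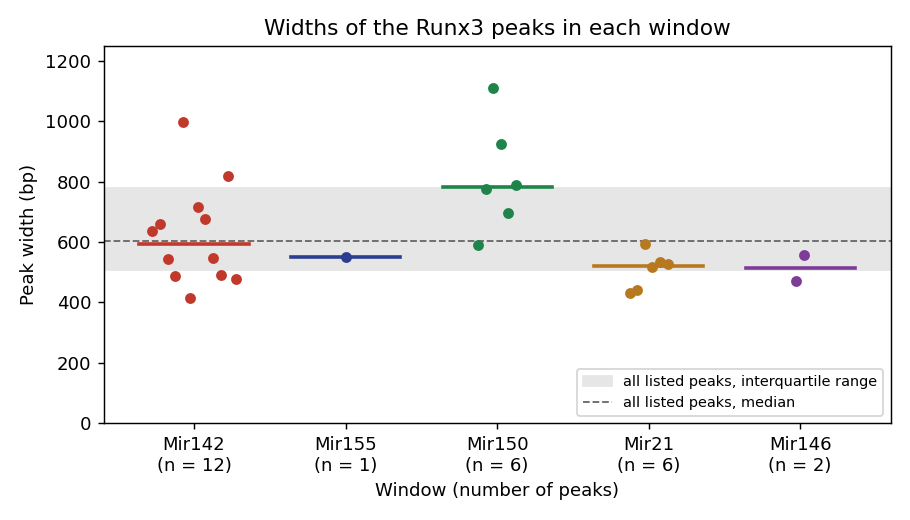
Width in bp (vertical axis) of each Runx3 peak in the 5 windows (points, in genome order from left to right; the short line is the median of the window); the grey band and dashed line are the interquartile range and the median of the whole list. The Mir150 points lie mostly above the list median of 604 bp and the Mir21 points below it.

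The window edges decided some members. At Mir146 the upper peak had its midpoint 0.259 kb inside the edge, and at Mir150 the upper peak 0.317 kb inside. Just outside, a peak of 1536 bp at 52337611 to 52339146 lay 1.62 kb below the Mir150 window, and one of 562 bp at 86357977 to 86358538 lay 1.74 kb below the Mir21 window. At Mir142 and Mir155 the nearest members were 21047 and 24525 bp inside and the nearest other peaks 14048 and 62664 bp outside.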

How the data were processed

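Per the labels' protocols, chromatin of the sorted NK cells was fixed in 1% formaldehyde and sheared to about 200 bp, and 50 bp reads were aligned with ELAND. The submitters' processing notes name CASAVA 1.8.2 and mm9 (mmp9 in the protocol). The authors deposited 1 list of peak positions. Not given in the sources used here are the peak caller, its threshold, the part of the serum library in the calling, and whether the list is complete. The name of the list holds the words "to small", which are not explained. Peaks were assigned by midpoint, and equal windows ran end to end from the first peak to the last of a chromosome, since chromosome lengths of mm9 were not used. The share of equal windows with at least as many peaks is a description, not a test. Counting was checked on simulated peaks. Every peak in a window is named. The loci and comparisons were chosen with earlier results of these data known. Python 3.11.15, numpy 2.4.6, scipy 1.17.1 and matplotlib 3.10.9 were used. Other microRNA loci, RUNX motifs in the peaks and genes of microRNA processing were planned but need mm9 sequence or annotation, and were not analysed here.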

Additional observations from a re-analysis of the deposited data

How the results depend on the processing

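Values under 6 other window or peak definitions and 4 other sets of equal windows, chosen at the outset, follow. Of 50 recomputed shares of equal windows, 23 stayed within the Wilson 95% interval of the reported share. Without the peaks narrower than the list median there were 11 of 27 peaks, 8725 of 16883 covered bp and a median width of 775 bp, by construction. The share was then 0.988% for Mir150 and 100% for Mir155, Mir21 and Mir146, which held no such peak. Joining across gaps of up to 1000 bp gave 1.42% for Mir142, 1.13% for Mir150 and 1.76% for Mir21. Windows of 0.5 times the length gave 0% for Mir142, 0.682% for Mir150, 6.48% for Mir21 and 100% for Mir155, where no peak was left. Windows of 2 times the length gave 0.377% for Mir150, 11.2% for Mir21, 39.1% for Mir155 and 45.1% for Mir146. Equal windows of all autosomes gave 1.24% for Mir150, 1.66% for Mir21 and 18.8% for Mir146. Among equal windows with at least 1 peak the shares were 6.92% for Mir150, 7.92% for Mir21, 66.1% for Mir146 and, by construction, 100% for Mir155. Around each listed peak of the chromosome they were 1.65% for Mir142, 22.3% for Mir150, 27.0% for Mir21, 89.9% for Mir146 and 100% for Mir155. Where no cause is named, the cause was not tested. The runs of peaks were added after the data were seen. No paired analysis was possible because there is a single library for each antibody. How many weak sites the list misses is unknown, as no depth is given.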
